A study of Mus musculus with 12 samples.

Results

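Ifitm6, Gpha2, Nnat, Depp1, Pdzrn4, Scgb1a1, Il22ra2, Upb1 and Akr1c19 are 9 mouse genes that stood high in skin after 12 weeks of topical baricitinib and that lie outside the interferon, T cell and hair keratin programmes usually read in alopecia areata. They were chosen by their log2 difference between week 12 and week 0 in baricitinib-treated mice, as genes with a large rise, out of 18193 genes that have a probe set with a single gene symbol, and 10 of the 45037 probe sets on the array carry their names. Depp1 has 2 of these, 1433836_a_at and 1433837_at, and each of the other 8 genes has 1. No threshold came with the choice. Because the arrays of baricitinib-treated mice chose these genes, every value from them is a description without a p-value, and counts of calls that rest on them are fixed in part by the choice and carry no weight as tests. The change in vehicle-treated mice is the comparison that stands as a test.

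The samples were skin biopsies from C3H/HeJ mice of the grafted alopecia areata model, in which skin from an affected mouse is grafted onto a recipient that then loses its own hair. Treatment was topical and began after disease was established, with week 0 taken at its start, so that no group was healthy skin. Of the 6 mice, 3 received baricitinib, an inhibitor of the Janus kinases JAK1 and JAK2, and 3 the vehicle control. Biopsies were taken at week 12 and at week 0, which makes 4 groups of 3 arrays (baricitinib week 12, baricitinib week 0, vehicle week 12 and vehicle week 0). Values are log2 signals after robust multi-array averaging (RMA), a method that corrects background, makes the arrays alike in distribution and summarises the probes of a probe set. A difference of 1 on this scale is a doubling of signal.

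Alopecia areata is an autoimmune loss of hair in which T cells surround and attack the growing hair follicle. Cytokine receptors of that response signal through Janus kinases. The 9 genes are not one pathway. Gpha2, Il22ra2 and Scgb1a1 encode secreted proteins, Ifitm6 and Nnat small membrane proteins, Depp1 and Pdzrn4 intracellular regulators, and Upb1 and Akr1c19 metabolic enzymes.

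All 9 genes stood higher at week 12 than at week 0 in each of the 3 baricitinib-treated mice, and the vehicle-treated mice showed no shift of that size in their median. Taking the better expressed Depp1 probe set, the median difference between week 12 and week 0 of baricitinib was 2.83 on the log2 scale, against 0.00 over all probe sets. In vehicle-treated mice the median over the 9 genes was 0.20, against 0.02 over all probe sets. All 3 baricitinib week 12 arrays stood above the other 9 arrays for 10 of the 10 probe sets, an arrangement found for 2.16% of all probe sets. Against the 3 arrays of baricitinib week 0 alone, 7.97% of all probe sets were so placed, and against the 3 of vehicle week 12 alone 7.44% were. The choice of the genes favours this count, and nothing is read from it.

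**Figure D1:**
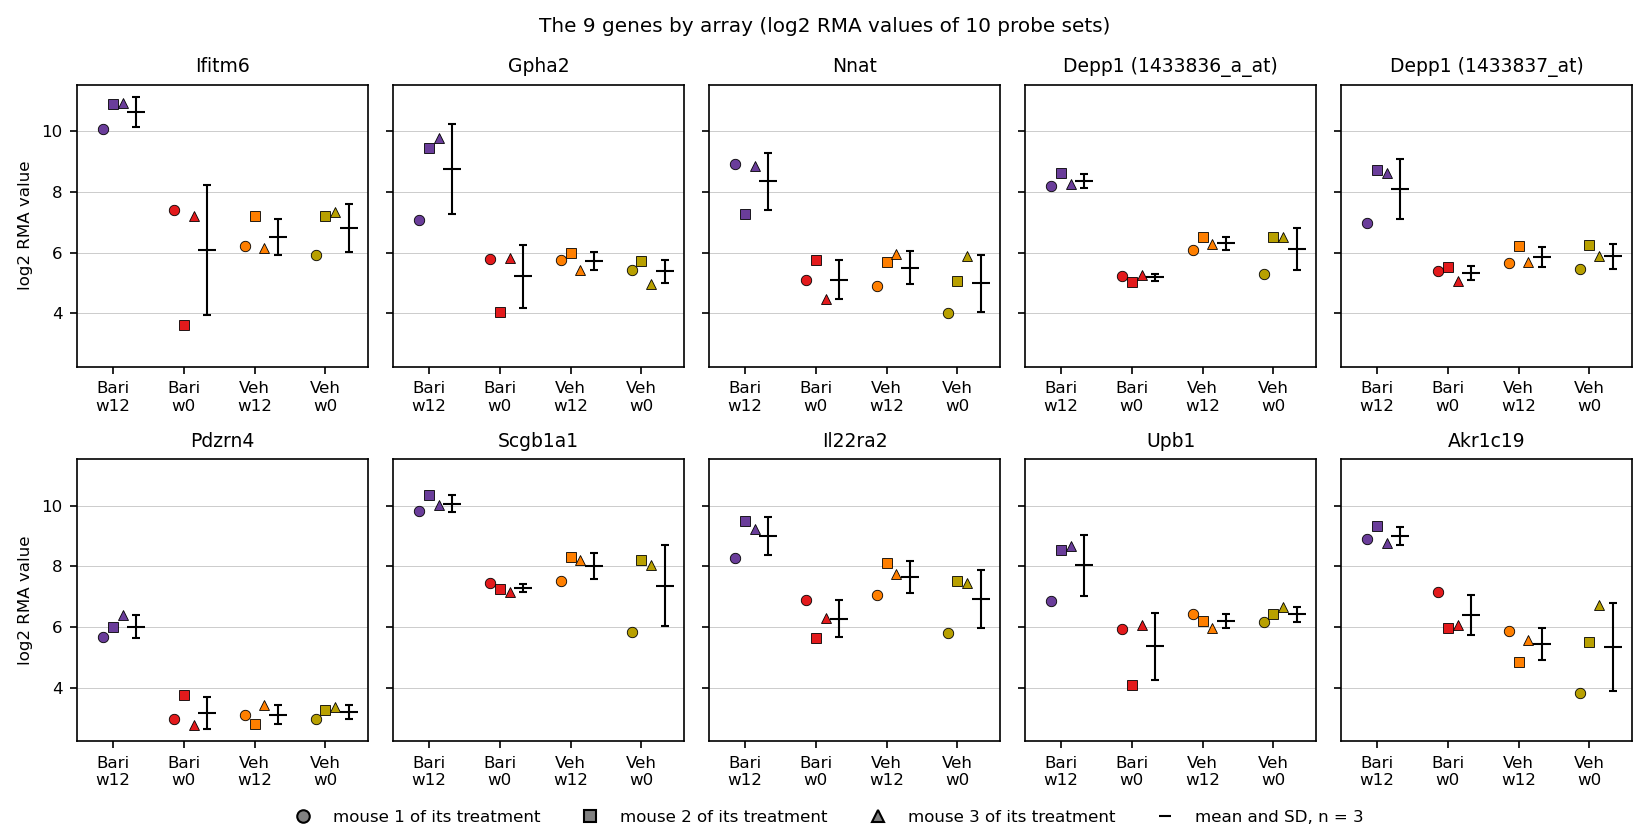
Log2 RMA values (vertical axis) of the 10 probe sets of the 9 genes on each of the 12 arrays, with 1 panel for each probe set. From left to right stand baricitinib week 12, baricitinib week 0, vehicle week 12 and vehicle week 0. Marker shape gives the mouse, and the bar beside each group its mean and SD (n = 3). The lowest baricitinib week 12 array lies above all other arrays in every panel, by 2.65 for Ifitm6 and by only 0.18 for Il22ra2.

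The comparison that did not enter the choice was vehicle week 12 against vehicle week 0. None of the 10 probe sets passed limma's test there (adjusted p = 0.9999 for each), at a background of 0% of all probe sets called. At an unadjusted p under 0.05 the count was 0 of 10, where 2.46% of all probe sets lay. Log2 differences ran between -0.30 for Ifitm6 and 0.71 for Il22ra2. For no probe set did the 3 vehicle week 12 arrays all lie above the 3 vehicle week 0 arrays (4.68% of all probe sets did). With 3 arrays in a group, the precision of each difference is limited, and a test that is not passed does not show that vehicle skin stayed the same.

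Ifitm6 belongs to the interferon-induced transmembrane proteins, a family whose best known members block the entry of viruses into cells. Its log2 values were 10.06, 10.88 and 10.91 in baricitinib-treated mice at week 12 and 7.41, 3.62 and 7.20 in the same mice at week 0. In the vehicle control they were 6.20, 7.20 and 6.15 at week 12 and 5.92, 7.20 and 7.32 at week 0. Baricitinib week 12 did not overlap with the other groups, as held for 2.16% of all probe sets, whereas those groups overlapped with one another. Of the 9 genes Ifitm6 had the widest gap, 2.65, between the lowest baricitinib week 12 array and the highest of the others. The mean was 10.62 ± 0.48 in baricitinib week 12 and 6.08 ± 2.13 in baricitinib week 0 (SD, n = 3 each), a 23.2-fold difference and rank 1 of all probe sets. This size rested partly on the low array of mouse 2 at week 0. Without that array the log2 difference was 3.31, or 9.91-fold, instead of 4.54, and without the week 0 array of mouse 1 it was 5.20, or 36.9-fold. Against vehicle week 12 (mean 6.51 ± 0.59, n = 3) the log2 difference was 4.10, or 17.2-fold.

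Of 7 other Ifitm genes measured, a list that includes the antiviral membrane protein Bst2, 0 were called in either direction by limma in baricitinib week 12 against week 0, where 1.24% of all probe sets were called, and 0 were called against vehicle week 12, where 0.58% were. The 3 best expressed, Ifitm3, Ifitm2 and Ifitm1, differed by -0.41 (SE 0.23), 0.59 (SE 0.46) and -0.43 (SE 0.39) on the log2 scale over the 12 weeks of baricitinib. Bst2, named after its value was seen, differed by -1.70 (SE 0.60, adjusted p = 0.242). At week 12 of baricitinib the family median was -0.04 relative to week 0.

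Gpha2 is the alpha subunit of thyrostimulin, a glycoprotein hormone that binds the thyrotropin receptor Tshr. Log2 values in baricitinib week 12 were 7.06, 9.44 and 9.77, and the same mice had 5.80, 4.03 and 5.82 at week 0. Vehicle-treated mice had 5.77, 5.99 and 5.42 at week 12 and 5.43, 5.73 and 4.97 at week 0. Mouse 1 was the lowest of the baricitinib week 12 arrays but still 1.07 above every array of the other groups. The means were 8.75 ± 1.48 in baricitinib week 12 and 5.22 ± 1.03 in baricitinib week 0 (SD, n = 3 each), a log2 difference of 3.54 or 11.6-fold. It was 3.03 against vehicle week 12 (5.72 ± 0.29, n = 3). Single arrays moved these values. Without mouse 1 at week 12 of baricitinib they were 4.39 against week 0 (20.9-fold) and 3.88 against vehicle week 12 (14.7-fold), and without mouse 2 at week 0 the difference over time was 2.94 (7.70-fold).

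Among the 6 other measured glycoprotein hormone subunits and receptors, 0 were called in either comparison. Tshr averaged 7.10 in baricitinib week 12, 4.39 in baricitinib week 0, 4.92 in vehicle week 12 and 4.94 in vehicle week 0. Its difference over time was 2.71 (SE 0.63) on the log2 scale with baricitinib, which missed the threshold in limma's test (adjusted p = 0.0657), and so did 2.18 against vehicle week 12 (adjusted p = 0.184). Lhb and Tshb, beta subunits of pituitary hormones, differed by -0.13 and 0.10 over time and averaged 4.13 and 3.37 in baricitinib week 12. The other subunit of thyrostimulin, Gphb5, had no probe set of its own name.

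Il22ra2 encodes the interleukin 22 binding protein, a soluble receptor that holds interleukin 22 away from the receptor on epithelial cells. In baricitinib-treated mice its log2 values were 8.29, 9.49 and 9.22 at week 12 and 6.88, 5.66 and 6.30 at week 0. Vehicle week 12 had 7.06, 8.11 and 7.74, and vehicle week 0 had 5.82, 7.51 and 7.45. Of the 9 genes, Il22ra2 came closest to overlap, since mouse 1 of baricitinib at week 12 exceeded mouse 2 of the vehicle control by only 0.18. The baricitinib week 12 mean of 9.0 ± 0.63 was 2.72 above that of week 0 (6.28 ± 0.61) and 1.36 above that of vehicle week 12 (7.64 ± 0.53, SD, n = 3 each). These are 6.58-fold and 2.57-fold, ranks 21 and 491 among all probe sets. All 3 vehicle-treated mice also had higher values at week 12, by 1.24, 0.60 and 0.29.

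The other measured genes of the interleukin 22 system were not called. Of 12 other measured ligands, receptors and signalling genes, 0 were called in baricitinib week 12 against week 0 and 0 against vehicle week 12. The 3 best expressed, the kinase Jak1, the feedback inhibitor Socs3 and the receptor chain Il20rb, differed over time by -0.09, -0.68 and 1.04 on the log2 scale. Both chains of the signalling receptor, Il22ra1 and Il10rb, differed by -0.34 (SE 0.28) and 0.24 (SE 0.21). Il22 itself had no probe set of its own name. Of 10 measured genes that keratinocytes are known to express on interleukin 22, 0 were called in either comparison, although 9 of the 10 lay below 0 over time and the median difference was -2.20. The 3 best expressed of these, the wound keratins Krt6a, Krt17 and Krt16, differed by -1.48 (SE 0.34, adjusted p = 0.0624 in limma's test), 0.12 (SE 0.55) and -1.83 (SE 0.57, adjusted p = 0.169).

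Scgb1a1, also known as uteroglobin or club cell secretory protein, is a small secreted protein best known from the airways. Its log2 values were high throughout, with 9.81, 10.36 and 10.01 in baricitinib week 12 against 7.44, 7.27 and 7.17 in baricitinib week 0. The vehicle control had 7.51, 8.32 and 8.21 at week 12 and 5.84, 8.22 and 8.05 at week 0. Baricitinib week 12 averaged 10.06 ± 0.28 and baricitinib week 0 averaged 7.29 ± 0.14 (SD, n = 3 each), a log2 difference of 2.77 or 6.80-fold, with changes of 2.37, 3.09 and 2.84 between arrays of the same number. The difference from vehicle week 12 (8.01 ± 0.44, n = 3) was 2.04. In vehicle-treated mice the change of 0.64 came from the low array of mouse 1 at week 0, without which it was -0.12.

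Among 8 further markers of airway club and ciliated cells, 0 were called in either comparison, and their mean over the list lay between 4.08 and 4.94 on the baricitinib week 12 arrays, between 3.96 and 4.73 at baricitinib week 0, between 4.08 and 4.61 at vehicle week 12 and between 3.76 and 4.31 at vehicle week 0. The levels on this list were uneven. The club cell genes Scgb3a2 and Scgb3a1 averaged 3.85 and 3.90 in baricitinib week 12, and the surfactant gene Sftpc 4.37, all below the median of their arrays. Cyp2f2, a cytochrome P450 of club cells, was above the median on every array, at 10.44 in baricitinib week 12, 9.35 in baricitinib week 0, 9.72 in vehicle week 12 and 8.48 in vehicle week 0. Its log2 difference was 1.09 (SE 0.81, limma adjusted p = 0.673) over time with baricitinib and 1.24 in vehicle skin. Of the 4 other secretoglobins measured, 0 were called over time. Scgb2b27 was called lower against vehicle week 12, with means of 3.19 and 5.84 and a log2 difference of -2.65 (limma adjusted p = 0.0159, called in 16 of 21 alternatives). Scgb1b27, the best expressed of the 4, differed by -2.07 (adjusted p = 0.581).

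Nnat encodes neuronatin, a small proteolipid of internal membranes that is expressed from the paternal allele and lies within the gene Blcap. Its log2 values were 8.91, 7.26 and 8.86 in baricitinib week 12 and 5.10, 5.76 and 4.48 in baricitinib week 0. In vehicle-treated mice they were 4.90, 5.68 and 5.94 at week 12 and 4.01, 5.07 and 5.88 at week 0. Mouse 2 was lowest of the baricitinib week 12 arrays, unlike for Gpha2, Upb1 and Il22ra2, where mouse 1 was lowest. The means were 8.34 ± 0.94 in baricitinib week 12, 5.11 ± 0.64 in baricitinib week 0 and 5.50 ± 0.54 in vehicle week 12 (SD, n = 3 each). The log2 difference was 3.23 over time (9.38-fold) and 2.84 against vehicle week 12 (7.14-fold).

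Blcap, its host gene, differed by 0.01 (SE 0.32) over time and by -0.03 against vehicle week 12. Among 9 measured genes of this locus and of adipocyte differentiation, in which neuronatin has been studied in mouse cells, 1 was called higher over time and 0 against vehicle week 12. That gene was Pnpla2, the lipase that starts the breakdown of stored fat, with means of 9.35 in baricitinib week 12 and 7.88 in baricitinib week 0 (log2 difference 1.47, SE 0.29, limma adjusted p = 0.0364, called in 8 of 22 alternatives). Cebpa and Srebf1, regulators of fat cell and lipid genes, differed by 0.62 (SE 0.46) and 0.11 (SE 0.25).

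Depp1 is a short protein first found as induced by progesterone in the decidua, and is a known target of FoxO transcription factors. The probe set 1433836_a_at had 8.20, 8.61 and 8.25 in baricitinib week 12 and 5.24, 5.04 and 5.26 in baricitinib week 0. Vehicle week 12 had 6.09, 6.52 and 6.29, and vehicle week 0 had 5.31, 6.51 and 6.50. Both baricitinib groups were tight, at 8.35 ± 0.22 and 5.18 ± 0.12 (SD, n = 3 each), and the log2 difference of 3.17 (9.0-fold) came from changes of 2.96, 3.56 and 2.99 between arrays of the same number. Against vehicle week 12 (6.30 ± 0.22, n = 3) the difference was 2.05. At week 0 the difference between baricitinib and vehicle mice (6.10 ± 0.69, n = 3) was -0.92.

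Depp1 was thus measured again by the probe set 1433837_at, which had 6.96, 8.72 and 8.63 in baricitinib week 12 and 5.39, 5.54 and 5.07 in baricitinib week 0. On it, vehicle week 12 had 5.65, 6.23 and 5.68 and vehicle week 0 had 5.47, 6.26 and 5.90. The log2 differences were 2.77 over time and 2.25 against vehicle week 12, close to those of the other probe set, but mouse 1 of baricitinib week 12 was well below mice 2 and 3 here and level with mouse 3 there. Without the 2 arrays that stood apart in quality, the difference over time on 1433837_at was 3.45 (10.9-fold).

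Beside Depp1, a list of FoxO targets and related genes was read, which includes the factors Foxo1, Foxo3 and Foxo4 themselves. Of its 20 other genes measured, 0 were called over time and 0 against vehicle week 12. Over time, 16 of the 20 lay above 0, and the median was 0.24. Bcl6, Pdk4 and Foxo3, the best expressed, differed by -0.02 (SE 0.28), 0.42 (SE 0.49) and -0.27 (SE 0.25). The farthest above 0 was Txnip, an inhibitor of thioredoxin named after its value was seen, at 1.53 (SE 0.54, limma adjusted p = 0.243).

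Pdzrn4 encodes a protein with PDZ domains and a RING finger, the kind of domain found in ubiquitin ligases. It was the dimmest of the 9 genes. Its log2 values were 5.67, 6.0 and 6.40 in baricitinib week 12, and 3.00, 3.78 and 2.80 in baricitinib week 0. In the vehicle control they were 3.12, 2.82 and 3.43 at week 12 and 2.97, 3.28 and 3.39 at week 0. The 9 arrays outside baricitinib week 12 all had Pdzrn4 below the array median, whereas the 3 baricitinib week 12 arrays had it above. The log2 difference over time was 2.83 (7.11-fold, means 6.02 ± 0.37 and 3.19 ± 0.52, SD, n = 3 each), and a ratio to values this dim is imprecise. It was 2.90 against vehicle week 12 (3.12 ± 0.31, n = 3).

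The 3 relatives of Pdzrn4 were far brighter and were not called. Pdzrn3 differed by -0.49 (SE 0.27) over time, Lnx1 by -0.40 (SE 0.27) and Lnx2 by 0.19 (SE 0.47), with means of 10.31, 9.62 and 9.69 in baricitinib week 12. Levels of different probe sets are not comparable as amounts of RNA.

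Upb1 encodes beta-ureidopropionase, the last enzyme of pyrimidine degradation, which releases beta-alanine. Log2 values were 6.87, 8.53 and 8.68 in baricitinib week 12 and 5.94, 4.10 and 6.08 in baricitinib week 0. The vehicle control had 6.44, 6.20 and 5.96 at week 12 and 6.18, 6.44 and 6.68 at week 0. Mouse 1 of baricitinib week 12 lay only 0.19 above the highest vehicle array, while mice 2 and 3 lay well clear. The log2 difference was 2.65 over time (6.28-fold, means 8.03 ± 1.01 and 5.38 ± 1.10) and 1.83 against vehicle week 12 (6.20 ± 0.24, SD, n = 3 each). Without mouse 2 at week 0 of baricitinib it was 2.02 over time, or 4.04-fold.

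Of 9 other genes of pyrimidine degradation, 0 were called over time and 0 against vehicle week 12. The enzyme that starts the pathway, Dpyd, differed by 1.23 (SE 0.52, adjusted p = 0.358 in limma's test) over time. Dpys, the step between Dpyd and Upb1, was named after its value was seen and differed by -0.06 (SE 0.25), at a mean of 4.12 in baricitinib week 12. Aldh6a1, which breaks down the products, and Upp1, which cleaves uridine, differed by 0.82 (SE 0.45) and -1.21 (SE 0.71).

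Akr1c19 is a mouse enzyme of the aldo-keto reductase family 1C, which reduces carbonyl groups of steroids and other compounds. Its log2 values were 8.90, 9.32 and 8.76 in baricitinib week 12 and 7.17, 5.96 and 6.08 in baricitinib week 0. Vehicle week 12 had 5.88, 4.85 and 5.57, and vehicle week 0 had 3.85, 5.53 and 6.72, a spread wider than in any other group for this gene. The difference was 2.59 over time (6.01-fold, means 8.99 ± 0.29 and 6.41 ± 0.66) and 3.56 against vehicle week 12 (11.8-fold, 5.44 ± 0.53, SD, n = 3 each). Akr1c19 is therefore the gene that ranked lowest of the 9 over time, 29, and second of them against vehicle week 12, where its rank was 5 of all probe sets. The baricitinib mice stood 1.04 above the vehicle mice at week 0.

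Its relatives are close paralogs that lie beside it in the genome, and whether their transcripts bind each other's probes was not tested. Of 13 other aldo-keto reductases, 0 were called over time and 1 was called higher against vehicle week 12. This was the neighbour Akr1c18, which inactivates progesterone, with means of 12.03 in baricitinib week 12 and 9.71 in vehicle week 12 (log2 difference 2.32, limma adjusted p = 0.0467, called in 10 of 21 alternatives). Over time with baricitinib it differed by 1.32 (SE 0.44, adjusted p = 0.215). Akr1c13 and Akr1c12 of the same cluster differed by 1.44 and 0.92 against vehicle week 12. Akr1a1, the best expressed of the family, differed by -0.29 and Akr1b10 by -0.72.

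**Figure D2:**
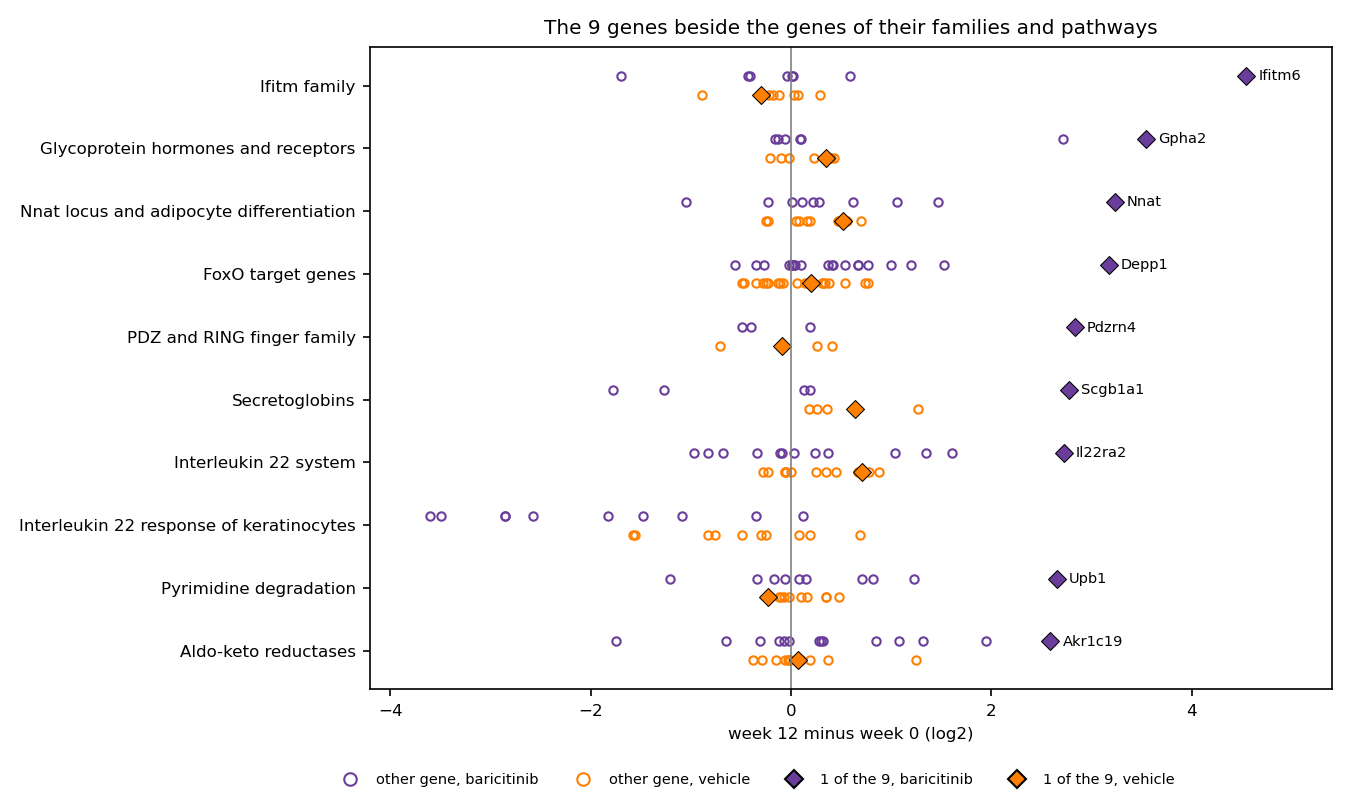
Log2 difference between week 12 and week 0 (horizontal axis) for the 9 genes (filled diamonds, named) and the other measured genes of their families and pathways (open circles), with baricitinib above vehicle in each line. With baricitinib each of the 9 lies farther to the right than every other gene of its own list, which the choice of the 9 favours (the nearest are Akr1e1 at 1.95 beside Akr1c19 at 2.59, and Tshr at 2.71 beside Gpha2 at 3.54), while in vehicle skin they lie among them, except Upb1, the lowest of its list at -0.23.

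The change was next taken mouse by mouse. The sample descriptions carry the same identifying numbers at week 12 and at week 0 within a treatment, and each number was taken as 1 mouse, although the labels do not state this and array deviations of a mouse did not correlate between the weeks in every case. The baricitinib changes chose the genes, so the choice favours the counts that rest on them, and nothing is read from those counts. All 3 baricitinib mice were higher at week 12 on 10 of the 10 probe sets (13.3% of all probe sets), and all 3 vehicle mice on 4 of the 10 (14.9% of all). The smallest change of a baricitinib mouse exceeded the largest of a vehicle mouse for 9 of the 10 probe sets, against 5.41% of all. The exception was Akr1c19, with changes of 1.73, 3.36 and 2.68 in baricitinib mice and 2.04, -0.68 and -1.14 in vehicle mice. Mouse 1 of the baricitinib group changed least for 8 of the 10 probe sets, Nnat and Pdzrn4 being those where mouse 2 did. For Ifitm6 the changes were 2.65, 7.26 and 3.71 in baricitinib mice and 0.28, -0.00 and -1.17 in vehicle mice. For Gpha2 they were 1.25, 5.42 and 3.95, against 0.33, 0.26 and 0.45.

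**Figure D3:**
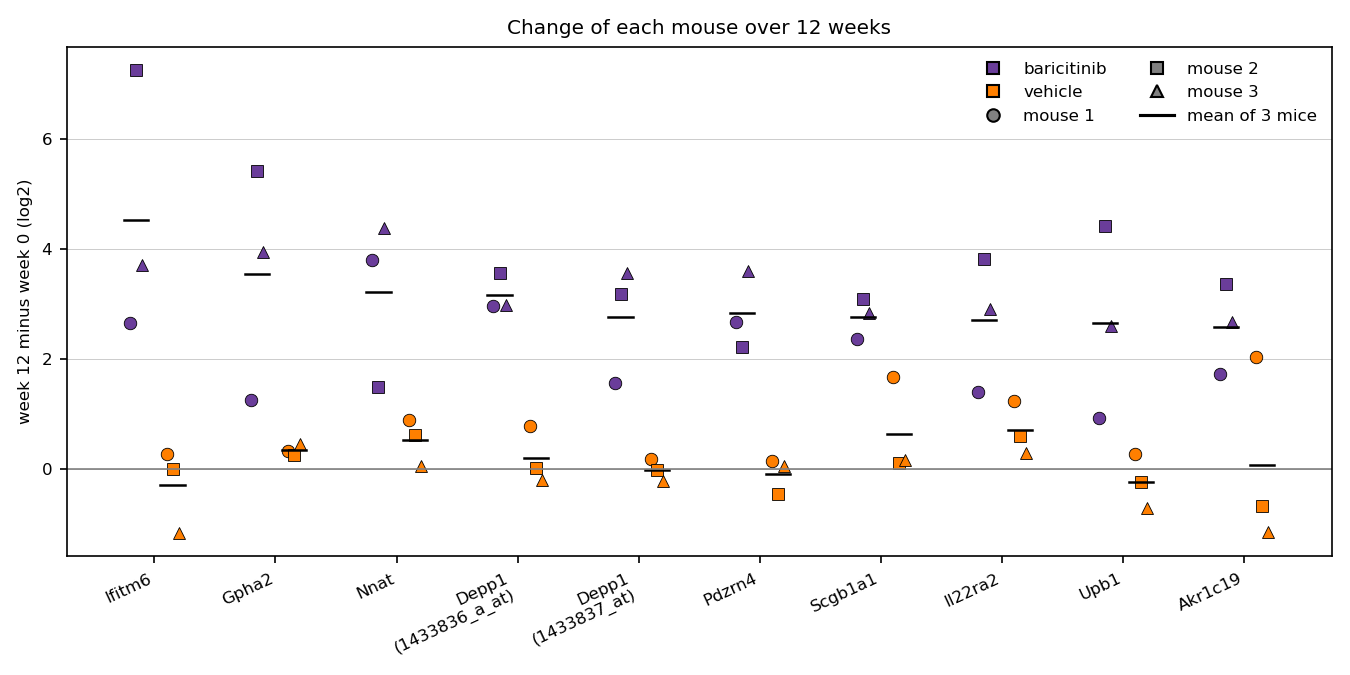
Log2 difference between week 12 and week 0 of each mouse (vertical axis) for the 10 probe sets, with the 3 baricitinib mice left of the 3 vehicle mice and a bar at each mean. Depp1 (1433836_a_at) and Scgb1a1 show the tightest baricitinib mice, at 2.96 to 3.56 and 2.37 to 3.09, and Ifitm6 the widest, at 2.65 to 7.26. Akr1c19 is the gene for which the treatments overlap.

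In the fit across all probe sets, 9 of the 10 probe sets were among those called higher in baricitinib week 12 against week 0, a call made for 0.362% of all, and Akr1c19 was the one that was not. This is the contrast that chose the genes, so nothing is read from the count. Against vehicle week 12, which shares the baricitinib week 12 arrays with the choice, both Depp1 probe sets, Pdzrn4 and Akr1c19 were among those called higher (4 of the 10, and 0.151% of all). None of the 10 was among those called lower, which were 0.875% of all probe sets over time and 0.429% against vehicle week 12. Single arrays moved these counts. Over time they were 4, 5 and 2 without mouse 1, 2 or 3 of baricitinib week 0, and 3 and 2 without mouse 2 or 3 of baricitinib week 12, and with mouse as a fixed replicate block they were 4. In these fits the calls over all probe sets moved too, from 557 to 206, 330, 70, 121, 140 and 158 in that order. Against vehicle week 12 the counts for the 10 probe sets were 1 without any 1 of the 3 vehicle week 12 arrays or without mouse 3 of baricitinib week 12, and 2 without mouse 2. There the calls over all probe sets went from 261 to 32, 48, 91, 80 and 77 in that order. The baricitinib change minus the vehicle change, which also contains the contrast of the choice, lay between 2.01 for Il22ra2 and 4.83 for Ifitm6 on the log2 scale. At week 0, baricitinib minus vehicle lay between -1.06 for Upb1 and 1.04 for Akr1c19.

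Array quality moved with the groups to some degree. On Affymetrix arrays the 3' minus 5' difference of a control transcript rises as RNA is shortened or amplified from its 3' end. For Gapdh this log2 index was 3.39, 1.00 and 1.10 in baricitinib week 12, 3.13, 3.83 and 2.17 in baricitinib week 0, 2.75, 2.96 and 3.79 in vehicle week 12, and 0.84, 3.78 and 4.29 in vehicle week 0. So 2 baricitinib week 12 arrays and 1 vehicle week 0 array had a low index. On the baricitinib week 12 array with an index of 3.39, all 10 probe sets were above the 9 arrays of the other groups, which the choice favours. That array was below its own group mean for 8 of the 9 genes, and so was the vehicle week 0 array with an index of 0.84. With the index as a covariate, the differences over time lay between 2.30 and 4.40. Gpha2 went from 3.54 to 2.96 and Nnat from 3.23 to 3.84. The part of RNA quality in the values was not tested. Mouse 2 of baricitinib week 0 and mouse 1 of baricitinib week 12 stood apart from the rest, with lower quartiles of 3.79 and 3.72, where the other 10 arrays had 3.29 to 3.47. Without both, the 10 probe sets had 8 calls over time and 7 against vehicle week 12, where all probe sets had 860 and 1008.

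**Figure D4:**
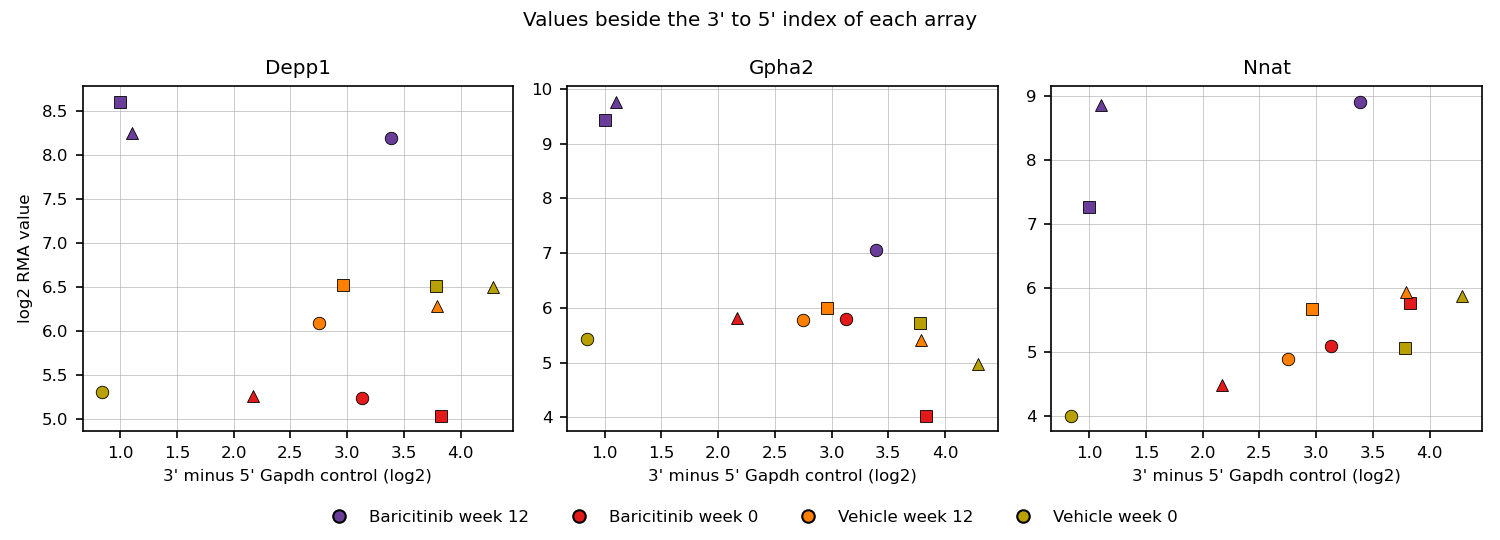
Log2 RMA value (vertical axis) of Depp1 (1433836_a_at), Gpha2 and Nnat against the log2 difference between the 3' and 5' Gapdh control probe sets (horizontal axis) on the 12 arrays. Colour gives the group and marker shape the mouse. Of the arrays with a low index, 2 are from baricitinib week 12 (1.00 and 1.10) and 1 from vehicle week 0 (0.84), and the baricitinib week 12 array of mouse 1 is at 3.39.

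Levels of some cell type markers also differed between the groups. Cell makeup was not measured, and in bulk tissue fewer cells of a type cannot be told apart from less RNA per cell. Markers of keratinocytes were high on all arrays, at a list mean of 12.09 to 12.50 in baricitinib week 12 and 11.95 to 12.30 in the other groups, as the tissue label says. Hair shaft genes were low after baricitinib, at list means of 5.04 to 6.21 in baricitinib week 12, 9.07 to 10.58 in baricitinib week 0, 7.95 to 8.55 in vehicle week 12 and 6.65 to 10.47 in vehicle week 0, with 4 of 12 called lower over time and 0 higher (Krt35, Krt31, Krt82 and Msx2, each called in 11 to 22 of 22 alternatives). Krt35, a cortex keratin, differed by -6.51. Markers of the resting follicle and bulge had 3 of 10 called higher over time and the same count against vehicle week 12, namely Fgf18, Krt24 and Krt15. Their log2 differences over time were 3.87, 3.96 and 2.36, at 8.05 to 9.20 for the list mean in baricitinib week 12, 7.22 to 7.82 in baricitinib week 0, 7.03 to 7.56 in vehicle week 12 and 7.65 to 7.80 in vehicle week 0. Each of these 3 calls over time was lost without mouse 1 or 3 of baricitinib week 0, or mouse 2 or 3 of baricitinib week 12.

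Adipocyte markers had a list mean of 9.60 to 10.04 in baricitinib week 12, 7.40 to 8.49 in baricitinib week 0, 7.71 to 8.73 in vehicle week 12 and 7.72 to 7.90 in vehicle week 0. All 9 measured lay above 0 over time, and 1 was called, the lipid droplet gene Cidec (log2 difference 2.76, called in 17 of 22 alternatives). Endothelial markers had 7.07 to 7.28 in baricitinib week 12, 5.90 to 6.42 in baricitinib week 0, 6.27 to 6.58 in vehicle week 12 and 6.16 to 6.42 in vehicle week 0, with 0 of 8 called. Sebaceous gland markers stood at 9.79 to 10.09 in baricitinib week 12 and at 8.82 to 9.38 in the other groups, with 0 of 7 called. Melanocyte markers stood at 5.77 to 6.76 in baricitinib week 12, 6.93 to 8.59 in baricitinib week 0, 6.39 to 7.75 in vehicle week 12 and 6.16 to 7.84 in vehicle week 0, with a median difference of -1.79 over time and 0 of 8 called. Of 8 T cell markers, 1 was called lower over time, Cd8a of cytotoxic T cells (-4.29, limma adjusted p = 0.00912, called in 21 of 22 alternatives). The list as a whole did not follow it, with a median of -0.04 and 4 of the 8 above 0. The dim Cd8b1 differed by -0.51 (limma adjusted p = 0.758). Of 7 markers of neurons and Schwann cells, 1 was called higher, the synuclein gene Sncg (3.16, adjusted p = 0.00184, called in 22 of 22 alternatives), at a list median of -0.19. The part of these cell types in the values of the 9 genes was not tested. Myeloid cells, where Ifitm6 has been described in mouse, were read in the same way, and their part was not tested either. Macrophage and monocyte markers stood at 7.15 to 8.04 in baricitinib week 12, 8.38 to 8.50 in baricitinib week 0, 7.47 to 8.28 in vehicle week 12 and 7.90 to 9.07 in vehicle week 0, with 1 of 9 called lower (Ccr2, -2.99, called in 16 of 22 alternatives). Neutrophil markers stood at 4.52 to 4.77, 5.03 to 5.20, 4.77 to 5.19 and 4.92 to 5.17 in these groups in the same order, with 0 of 10 called. Of these, Ngp, Camp, Cxcr2, Mmp8, Ltf and Elane were below the median on every array, so this list mean says little about neutrophils.

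Within groups, how far the 9 genes varied together differed from pair to pair. After the group means were removed, which the choice of genes did not use, Pearson's r over the 12 arrays was above 0 for 30 of the 36 pairs, with a median of 0.32. These are descriptions over arrays that share RNA quality and mice. Such r were not taken for pairs of other genes, so they are not shown to be particular to the 9. Depp1 and Scgb1a1 had the highest r, 0.97, and it was 0.98 without the 2 arrays that stood apart. Depp1 with Il22ra2 had 0.87 (0.93 without them) and Scgb1a1 with Il22ra2 0.85 (0.97), so that these 3 genes formed the tightest group. All 3 were low on the vehicle week 0 array of mouse 1, whose Gapdh index was 0.84. There Depp1 had 5.31 beside 6.51 and 6.50, Scgb1a1 had 5.84 beside 8.22 and 8.05, and Il22ra2 had 5.82 beside 7.51 and 7.45. How far these r rest on that array was not tested. By contrast, Gpha2 and Upb1 had 0.91 with all arrays and -0.01 without those 2, and Ifitm6 with Upb1 0.82 and 0.49. The lowest r was -0.51, between Ifitm6 and Pdzrn4.

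Outside the 9, the genes with the most similar pattern over the 12 arrays were taken by Pearson's r on log2 values. Group means were not removed here, so these r contain the difference that chose the 9 genes. Each is also among the highest of all genes, so the r are high by selection and nothing is read from their size. Pdzrn4 had Agr3 (r = 0.980), Igfbp3 (0.968) and Msra (0.967). Agr3, a relative of protein disulphide isomerases, averaged 4.61 in baricitinib week 12 and 2.18 in baricitinib week 0, and Igfbp3, a carrier of insulin-like growth factors, averaged 10.25 and 8.13. Depp1 had Pgm5 (0.958), the circadian repressor Nr1d1 (0.950) and the peptide hormone gene Cck (0.939), and Il22ra2 again had Pgm5 (0.966), with Lonp2 (0.964) and Ccdc149 (0.961). Pgm5 averaged 8.52 in baricitinib week 12, 5.96 in baricitinib week 0, 7.19 in vehicle week 12 and 6.49 in vehicle week 0, the same order as Il22ra2. Gpha2 had the aldehyde dehydrogenase Aldh3a1 (0.978), Emc9 (0.972) and C2cd2 (0.967). Ifitm6 and Upb1 shared Rdm1 (0.965 and 0.969), and Nnat and Akr1c19 shared Arl3 (0.952 and 0.934). The others were Nyap1 (0.954) and 9630050P21Rik (0.947) for Ifitm6, Cited2 (0.974) and Map4 (0.959) for Upb1, Ces1d (0.949) and Abcd2 (0.947) for Nnat, and Tmem229a (0.922) and Vkorc1 (0.918) for Akr1c19. Scgb1a1 had Tmbim1 (0.963), Slc13a4 (0.961) and the decoy receptor Il1r2 (0.959), which averaged 10.05 in baricitinib week 12 and 8.69 in baricitinib week 0.

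Genes beside the 9 in the genome were read over the 12 weeks of baricitinib as well. There were 36 distinct neighbours with a probe set of a single symbol, taken as the nearest 2 on each side in RefSeq. Of these, 0 were called higher (0.362% of all probe sets) and 2 lower (0.875% of all), and their median log2 difference was 0.02. The 2 were Batf2, an interferon-induced transcription factor 53.9 kb from Gpha2 (-2.57, limma adjusted p = 0.0142), and Incenp, a protein of dividing chromosomes 784 kb from Scgb1a1 (-1.27, adjusted p = 0.0276). In the comparison with vehicle week 12, 1 neighbour was called, where 0.58% of all probe sets were, and it was Akr1c18 again. With 36 neighbours these counts are small, and nothing is read from them.

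The promoters were read last, because members that move together may share letters upstream of their start sites. RefSeq promoter windows of the mouse assembly GRCm38.p6 matched 7 of the 9 genes, with 8 windows, and Il22ra2 and Scgb1a1 were not matched. In the 250 bases before the start site, on both strands, 5 motifs were searched, with no overlap between their matches in these windows. The GAS motif of JAK-STAT signalling, TTCNNNGAA, was in 2 of the 8 windows and in 7.02% of 32851 promoters. The interferon-stimulated response element, searched as 2 copies of GAAA with 2 bases between them, was in 1 of 8 (2.98% of all), and the FoxO motif GTAAACA in 1 of 8 (3.17%). The glucocorticoid response element, searched as GNACA and TGTNC with 3 bases between them, and the E-box CACGTG of circadian factors were in 0 of 8 (0.387% and 6.02%). Stretches of 60 bases around the 4 matches follow, shown because they are where these motifs lie, with the motif in capitals.
Ifitm6, GAS, chr7:141016893-141016952, minus strand: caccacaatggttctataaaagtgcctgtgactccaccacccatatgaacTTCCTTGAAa
Akr1c19, GAS, chr13:4233680-4233739, plus strand: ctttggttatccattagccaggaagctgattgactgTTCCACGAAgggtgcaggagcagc
Pdzrn4, FoxO, chr15:92396595-92396654, plus strand: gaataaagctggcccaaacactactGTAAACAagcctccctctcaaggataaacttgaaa
Gpha2, ISRE, chr19:6226188-6226247, plus strand: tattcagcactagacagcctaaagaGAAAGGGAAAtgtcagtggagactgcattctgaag
The matches began 10, 24, 190 and 188 bases before the start sites of Ifitm6, Akr1c19, Pdzrn4 and Gpha2. RefSeq starts the Akr1c19 gene at chr13:4233503, so the Akr1c19 stretch lies inside the gene span, before a start site within it. Depp1, the known FoxO target, had no match to these letters in its window. A match is a likeness of letters and not a measured binding site.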

How the data were processed

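Skin RNA of 6 mice at week 12 and week 0 was measured on 12 Affymetrix mouse arrays. Per the labels and the methods, the authors amplified and biotin-labelled the RNA, normalized the arrays by RMA and dropped poor samples before downstream work. In the topical experiment they removed 1 baricitinib sample at baseline and 1 at week 12 for failing quality control. Which samples these were, and whether the 12 arrays used here include them, is not stated. The methods count as many mice per treatment as there are arrays per group here. Whether that count came before or after the removal is not stated. The arrays that stood apart in quality come from the same groups as the removed samples. They are mouse 2 of baricitinib week 0 and mouse 1 of baricitinib week 12. Whether they are the removed samples could not be checked, and the main fit kept them. The version of RMA is not given in the sources used here. The deposited log2 values were used with no further normalization, and every value column belonged to a sample. Without 64 control probe sets, 45037 were tested, of which 34945 had 1 gene symbol in the platform annotation, 932 several and 9160 none.

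A mean per group was fitted over all 12 arrays with limma 3.58.1 in R 4.3.3 (residual degrees of freedom 8, prior 3.54), with Benjamini-Hochberg adjustment of p-values over the 45037 probe sets and a threshold of 0.05. The code was tested on simulated data. A gene with several probe sets was given by the one with the highest mean. The members, the family, pathway and marker lists and the tests were chosen with earlier results of these data known. Genes named besides the 9 were the 3 most correlated with each, the called and the 3 best expressed genes of each family list, and the nearest genomic neighbours.

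Within a treatment the sample descriptions carry the same identifying numbers at both weeks, and each number was read as a mouse, which the labels do not state in words. Their deviations from the group means correlated at -0.36, -0.51 and 0.47 for baricitinib mice and at 0.44, -0.13 and 0.49 for vehicle mice, so the data bear out the pairing only in part. The reported fit had no block for the mouse, and fits with one were alternatives, besides array weights, other normalizations, a filter on dim probe sets, fits of only the groups compared and each array left out. Marker lists not described in the report (skeletal muscle, dendritic and Langerhans cells, fibroblasts) had 0 of 9, 0 of 8 and 0 of 7 genes called over time with baricitinib. Figures were drawn with matplotlib 3.10.9.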

Additional observations from a re-analysis of the deposited data

How the results depend on the processing

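All 10 probe sets kept a log2 difference above 0 in baricitinib week 12 against week 0 in 22 of 22 alternatives and against vehicle week 12 in 21 of 21, a direction that the choice of the genes favours. In vehicle skin 0 of 10 were called under every alternative run. Counts of calls moved more, and their cause was not tested. Over time with baricitinib, the 9 of 10 became 4 with mouse as a fixed replicate block (158 instead of 557 of all probe sets called) and 3 with only the 2 groups compared (97 of all), 9 with mouse as a random replicate block, and between 2 and 10 with an array left out. In vehicle skin and for the difference of the changes the fixed block left the count at 0, and it was not run for baricitinib against vehicle at one week, which it cannot estimate. The random block left every count for the members as it was. Against vehicle week 12, the 4 became 10 with array weights, 7 without both arrays that stood apart, and between 1 and 6 with an array left out. At week 0 the 0 became 5 with array weights. For the difference of the changes the 0 became 10 with array weights, 4 without both arrays, 2 with the 3' to 5' index as covariate, and between 0 and 3 with an array left out. Over all probe sets, the 557 called over time with baricitinib became 860 without both arrays, 1668 with the index, 11277 with array weights and between 70 and 1364 with an array left out. The 261 called against vehicle week 12 became 55 with only the 2 groups compared, 1008 without both arrays, 690 with the index, 11205 with array weights and between 32 and 625 with an array left out. For the difference of the changes the 0 of all became at most 55, except 6590 with array weights, which also called 4986 in vehicle skin and 5712 at week 0. The estimation of array weights gave a convergence warning. The sign of small vehicle changes turned in some settings. With array weights it was -0.12 for Depp1 (1433836_a_at), -0.12 for Scgb1a1 and -0.31 for Akr1c19, and with the index Akr1c19 had -0.01. With an array left out, the range was -0.20 to 0.40 for Depp1 (1433836_a_at), -0.23 to 0.17 for 1433837_at, -0.25 to 0.06 for Pdzrn4, -0.12 to 1.07 for Scgb1a1 and -0.69 to 0.75 for Akr1c19. The settings without both arrays and with the index were added after the data were seen. All 10 probe sets passed the filter on dim values. There were 3 arrays in a group, which limits the precision of every difference.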
